A study of Mus musculus with 2 samples.

Results

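Germ cells with RNA of both GDNF receptor genes, Gfra1 and Ret, were described in cultures of mouse THY-1+ germ cells. Members were barcodes with at least 1 UMI of Gfra1 and at least 1 UMI of Ret, and with Kit and Neurog3 at 0. They were taken from barcodes with at least 2000 genes, at most 20% of UMIs in mitochondrial genes and under 40 UMIs of Vim plus S100a6, genes of the fibroblast feeder. The gate held 1594 of 8694 kept cells, made up of 234 of 4157 control cells and 1360 of 4537 FGF9-treated ones. The rule used the values of Gfra1, Ret, Kit, Neurog3, Vim and S100a6, which are therefore given only as a description.

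GDNF is the niche factor on which spermatogonial stem cells (SSC) depend for self-renewal. It binds the GPI-anchored coreceptor GFRA1, and the pair activates the RET tyrosine kinase, which signals through SRC family kinases, PI3K and the RAS-ERK cascade. Cells with both receptors are counted among the most primitive undifferentiated spermatogonia, whereas Neurog3 marks transit-amplifying progenitors and Kit marks differentiating spermatogonia. FGF receptors feed the same ERK cascade, with ETS factors such as ETV5 among its nuclear outputs and DUSP and SPRED proteins among its feedback inhibitors.

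Established cultures, enriched for SSC by their THY-1 surface protein and grown over a layer of STO fibroblasts, were given FGF9 at 20 ng/ml (FGF9-treated, 1 library) or no FGF, 0 ng/ml (control, 1 library), for 48 h. Both came from cultures kept between passages 9 and 12 on GDNF (20 ng/ml), FGF2 (1 ng/ml) and soluble GFRA1 (150 ng/ml), and held cells pooled from several mice. No genotype or animal age was stated in the labels. At the start the medium was changed to one with FGF9 or with albumin, and the study describes the control as having received no growth factor, while the labels give it only as without FGF. With 1 library for each treatment no test exists. All intervals are 95% intervals of counting error, and "higher" and "lower" describe these libraries.

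Median depth was close inside and outside the gate in control, and members were the deeper ones in FGF9-treated cells. Control members had a median of 14518.5 UMIs and FGF9-treated members one of 13834.5, against 14838 and 12684 in the other kept cells. Mitochondrial UMIs had medians of 9.27% and 9.23% in members and 9.50% and 9.15% in the others. Sums rested on 3942086 UMIs for the control members and 21919257 for the FGF9-treated members, so a value in control members carries the wider interval. The libraries shared 11 barcodes, of which 1 control member and 4 FGF9-treated members were part. Doublets were not removed, and 6 control and 57 FGF9-treated members exceeded their library's median UMIs by more than 2.5 times. These were 2.56% and 4.19% of members, beside 1.78% and 2.08% of the other kept cells.

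The reference promoters of 3 genes that the results turn on are given first: the coreceptor gene of the gate, the ETS factor with the largest control difference below, and the ERK phosphatase next to it. Each runs from 250 bases before to 50 bases after an annotated start and is written 5′ to 3′ on the gene's strand (RefSeq, GRCm38.p6). Capitals mark GGAAG, a form of the GGAA core that ETS factors bind, and its reverse complement CTTCC. This form was in 71.4% of all 32851 promoters of the same length, so its presence is ordinary.
Gfra1, chr19:58455349-58455648, minus strand: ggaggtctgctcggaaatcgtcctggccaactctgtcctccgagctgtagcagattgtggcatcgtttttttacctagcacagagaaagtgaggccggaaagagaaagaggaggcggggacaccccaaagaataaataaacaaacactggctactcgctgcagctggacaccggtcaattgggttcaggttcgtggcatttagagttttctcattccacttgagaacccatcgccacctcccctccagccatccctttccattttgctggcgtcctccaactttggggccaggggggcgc
Etv5, chr16:22438319-22438618, minus strand: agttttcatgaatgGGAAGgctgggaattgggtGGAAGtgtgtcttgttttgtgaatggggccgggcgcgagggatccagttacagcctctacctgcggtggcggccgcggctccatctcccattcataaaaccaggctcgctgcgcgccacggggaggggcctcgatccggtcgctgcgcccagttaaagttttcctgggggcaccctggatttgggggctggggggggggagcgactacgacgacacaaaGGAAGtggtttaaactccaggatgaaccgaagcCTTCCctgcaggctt
Dusp6, chr10:99262981-99263280, plus strand: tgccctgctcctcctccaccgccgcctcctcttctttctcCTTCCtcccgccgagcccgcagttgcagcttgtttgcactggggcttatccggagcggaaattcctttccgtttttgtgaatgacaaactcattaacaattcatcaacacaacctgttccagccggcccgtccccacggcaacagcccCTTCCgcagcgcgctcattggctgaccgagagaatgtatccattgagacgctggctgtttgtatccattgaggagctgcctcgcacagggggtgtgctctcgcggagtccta
The marked form was found 0 times in the Gfra1 window, 4 times in this Etv5 window and 2 times in the Dusp6 window. The shorter GGAA, which the Gfra1 window also holds, was not counted. Another annotated Etv5 start, at chr16:22439521-22439820, had 0. The longer form CCGGAAG, in 8.86% of all promoters, was in none of these 4 windows. These matches describe letters only, and no binding was measured.

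The gate took 5.63% of kept control cells (95% exact binomial interval 4.95 to 6.37) and 30.0% of kept FGF9-treated cells (28.6 to 31.3). Each of the genes contributed. Gfra1 was found in 19.6% of control and 48.8% of FGF9-treated cells, and Ret in 34.9% and 70.0%. When each cell was thinned to 5000 UMIs the gate held 76 of 4141 control cells (1.84%, 1.45 to 2.29) and 463 of 4515 FGF9-treated cells (10.3%, 9.38 to 11.2). That thinning left out 16 and 22 shallower cells. Thus the size of the gate depended strongly on depth, whereas its order between the libraries did not at the depths tried.

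Feeder barcodes, which failed only the Vim plus S100a6 condition, served as a background for the gate. It held 0 of 31 control feeder barcodes, which allows a share of up to 9.68%, and 2 of 63 FGF9-treated ones (3.17%, 0.387 to 11.0). Their median depths were 20517 and 26481 UMIs, deeper than those of the germ cells. Of the 63 FGF9-treated ones, 25 exceeded 2.5 times the median UMIs of kept cells, and doublets with germ cells were not removed. The FGF9-treated share of kept cells lay above this feeder background, and the control share of 5.63% lay inside the range that so few feeder barcodes allow. Barcodes outside the gene and mitochondrial filter were the other background. At 5000 UMIs the gate held 2 of 106 control ones (1.89%, 0.229 to 6.65). It held 25 of 144 FGF9-treated ones (17.4%, 11.6 to 24.6), above the 10.3% of kept cells. What these barcodes hold was not tested.

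**Figure D1:**
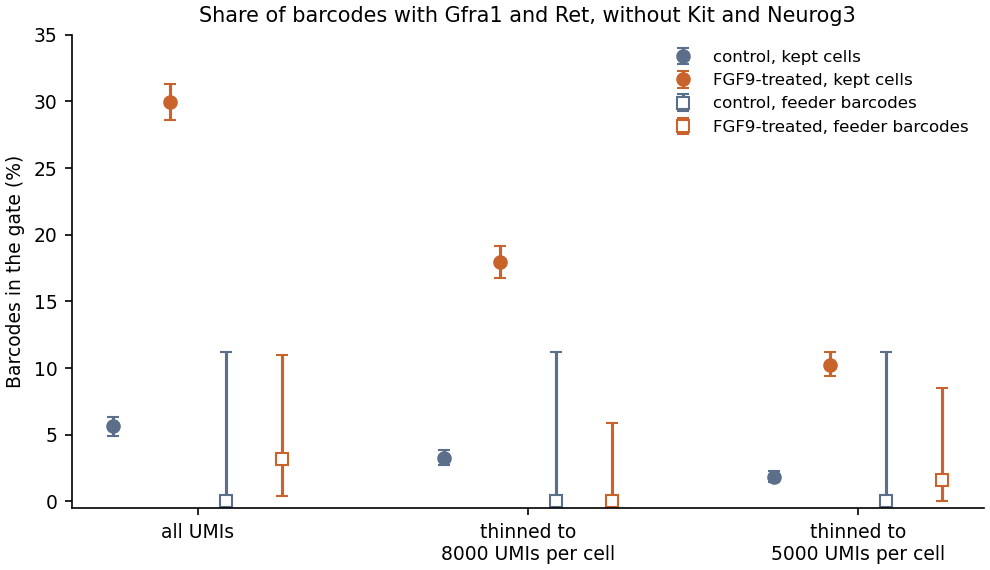
Percent of barcodes in the gate (vertical axis) with all UMIs and with cells thinned to 8000 or 5000 UMIs, for kept cells (filled circles) and feeder barcodes (open squares) of control and FGF9-treated cells. Bars are 95% exact binomial intervals; the FGF9-treated kept cells lie above the control kept cells at each depth (30.0% and 5.63%, 17.9% and 3.27%, 10.3% and 1.84%).

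Gfra1 and Ret were found in the same cells more often than their single shares would give, mainly in control. At 5000 UMIs per cell, 87 control cells had both genes where the product of the single shares gives 46.5, a ratio of 1.87. Ret was found in 28.8% of control cells with Gfra1 (23.8 to 34.3) and in 14.4% of those without it (13.3 to 15.5). In FGF9-treated cells 511 had both where the product gives 458, a ratio of 1.12, and Ret was found in 44.6% of cells with Gfra1 and 38.4% of those without. Cells with both receptors and a UMI of Kit or Neurog3, kept out by the rule, numbered 11 of 87 in control at this depth (12.6%, 6.48 to 21.5) and 48 of 511 with FGF9 (9.39%, 7.01 to 12.3), with intervals that overlapped. At full depth they numbered 181 of 415 (43.6%) and 327 of 1687 (19.4%).

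Within the gate most cells rested on few receptor UMIs. Exactly 1 UMI of each gene was found in 81 of 234 control members (34.6%) and 281 of 1360 FGF9-treated members (20.7%). The highest counts in a member were 7 Gfra1 and 7 Ret UMIs in control, and 14 and 16 in FGF9-treated cells. The pooled Gfra1 level was 88.8 CPM (counts scaled to the total UMIs of the sum) in control members and 114 CPM in FGF9-treated members, and that of Ret 118 and 145 CPM. In the other kept cells Gfra1 stood at 12.0 and 31.6 CPM and Ret at 29.7 and 84.2 CPM. The cells outside the gate thus differed between the libraries. In control 2305 of the 3923 others had neither receptor, in FGF9-treated cells 830 of 3177.

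The germ cell label held for the members. At 5000 UMIs per cell, Dazl, a germ cell RNA-binding protein gene, was found in 234 of 234 control and 1357 of 1357 FGF9-treated members, and in 9 of 31 and 14 of 63 feeder barcodes. Ddx4 (VASA) was found in 87.6% and 85.9% of members, and in 16.1% and 7.94% of feeder barcodes. Among 8 germ cell markers none differed by the fold used here between members and other kept cells in either library. Markers of feeder fibroblasts outside the filter were near their level in the other cells. The summed level of 17 such genes was 187 CPM in control members and 159 CPM in the others, 216 and 204 CPM in FGF9-treated cells, and 10732 and 13859 CPM in feeder barcodes. Acta2, Cald1, Postn, Ccn2, Lum and Dcn were at 0 in control members.

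Stem cell markers that the rule had not used gave a thinner record. Only 6 of 18 listed SSC markers reached the floor of 10 CPM, the mean of the libraries over all kept cells. Id4, an inhibitor of bHLH factors and a marker of SSC, had 22.6 CPM in control members and 16.3 CPM in the others, with a log2 ratio of 0.47 (0.14 to 0.78), and 21.6 and 20.4 CPM in FGF9-treated cells. Below the floor, Nanos2, an RNA-binding protein of the GFRA1+ state, had 35 UMIs in control members and 214 in FGF9-treated members (8.88 and 9.76 CPM, against 5.52 and 8.62 CPM in the others). Tspan8 had 11 and 155 UMIs (2.79 and 7.07 CPM, against 1.33 and 4.92 CPM). Bcl6b had 10 and 138 UMIs (2.54 and 6.30 CPM, against 2.02 and 5.80 CPM). Raw UMIs in members were 19 and 187 for Pax7, 3 and 54 for Cxcr4, 2 and 5 for T, and 0 and 2 for Pdx1. They come from sums of 3942086 and 21919257 UMIs, so they cannot be set against each other between the libraries. Lhx1 reached the floor with 10.7 CPM in control members and 7.95 CPM in the others, and 26.4 and 22.8 CPM in FGF9-treated cells.

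The count of the anti-KIT surface tag, an antibody count that the rule had not used, was in members near that in other cells with Kit at 0. Members had themselves been chosen with Kit RNA at 0. Its median was 404.5 tags in control members (quartiles 360 and 483) and 665.5 in other control cells with Kit RNA. Other control cells with Kit at 0 had 424. Control cells with both receptors and Kit RNA, left out by the rule, had a median of 691. In FGF9-treated cells the median was 309 in members, 306 in others with Kit at 0 and 392 in others with Kit RNA. All other kept cells together had 441 in control and 309 in FGF9-treated cells. Barcodes outside the gene and mitochondrial filter held a median of 439 tags (control) and 313 (FGF9-treated). Their medians were 2194.5 and 2117 RNA UMIs and 77.0% and 60.2% mitochondrial UMIs. Feeder barcodes held medians of 399 and 333 tags. The member medians lay near these backgrounds, so the counts do not show KIT on members above background. Depth differs between these classes, with a median of 24667 UMIs in the control cells with both receptors and Kit RNA.

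**Figure D2:**
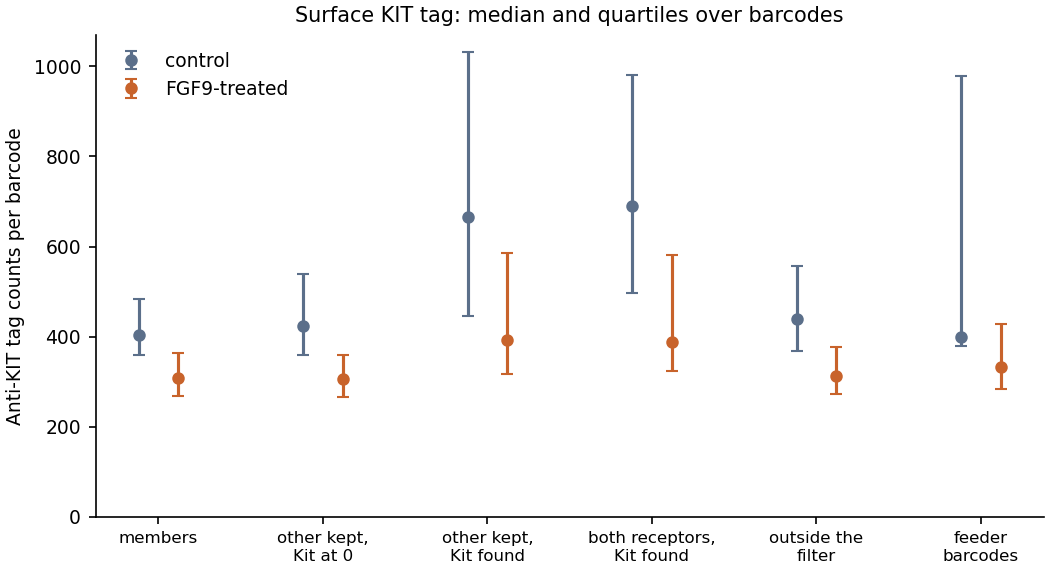
Anti-KIT tag counts per barcode (vertical axis) in members, in other kept cells without and with Kit RNA, in cells with both receptors and Kit RNA, in barcodes outside the filter and in feeder barcodes, for control and FGF9-treated cells. Points are medians and bars run from the lower to the upper quartile. Members (404.5 and 309) sit with the cells without Kit RNA (424 and 306) and near the barcodes outside the filter (439 and 313).

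Members were compared with the other kept cells of their own library over 8276 genes of at least 10 CPM, by the ratio of summed UMIs. A gene is called here when the log2 ratio is at least 0.5 in size and its counting interval leaves out 0. In control 239 genes were higher in members (2.89% of those measured) and 150 lower (1.81%). In FGF9-treated cells 11 were higher (0.133%) and 4 lower (0.0483%), although the intervals were narrower there, with a median width of 0.23 against 0.45 on the log2 scale. The 11 were Batf, Col18a1, Fst, H19, Myh6, Nefm, Optn, Pnp, Prrx2, Slc2a3 and Tanc1, and the 4 were Dbndd1, Dpysl3, Eppin and Tcp11l1. Of these, 9 of the 11 (81.8%, and 3.77% of the 239) and 2 of the 4 (50.0%, and 1.33% of the 150) were also called in control, and no gene was called in opposite directions. With the other FGF9-treated cells weighted to the members' depth, Myh6 (0.48), Optn (0.48), Tanc1 (0.47) and Eppin (-0.49) came under the fold of 0.5, while Pnp and Prrx2 were not looked at with this weighting. These counts depended on the gate. With at least 3 UMIs of each receptor in FGF9-treated cells, an alternative chosen after seeing the data, 103 genes were higher and 123 lower, and with at least 2 UMIs of each the control counts were 516 and 361. Of the 239 genes higher in control members, 225 had a ratio above 0 in FGF9-treated cells, with a median of 0.19 there and 0.71 in control. Control and FGF9-treated cells share no cells in these ratios. Over the 8276 genes, which are not independent replicates, Pearson's r between the libraries was 0.51 and Spearman's rho 0.46.

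ERK output genes were among the largest differences of the control gate. Of 22 listed ERK feedback and output genes 12 were measured; 9 were higher and 0 lower in control members, with a median log2 ratio of 0.83 beside 0.01 over all genes. In FGF9-treated cells 0 of the 12 were called and the median was 0.20. The 9 were the ETS factors Etv4 and Etv5, the phosphatases Dusp1 and Dusp6, the RAS-ERK inhibitors Spred1, Spred2 and Il17rd, and the immediate early genes Ier3 and Phlda1. Of these, Dusp6, Spred2, Etv4, Etv5 and Phlda1 were under 10 CPM over kept control cells. They passed the floor through their FGF9-treated level, so the count and median depend on that filter.

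Etv5, which is required for SSC maintenance, had 9.64 CPM in control members (38 UMIs, 6.82 to 13.2 CPM) and 1.33 CPM in the other control cells (85 UMIs, 1.07 to 1.65). The log2 ratio was 2.85 (2.26 to 3.42), and 2.82 with the others weighted to the depth of the members. In FGF9-treated cells it had 31.9 CPM in members and 28.3 CPM in the others, a log2 ratio of 0.18 (0.04 to 0.31). At 5000 UMIs per cell a UMI of Etv5 was found in 13 of 234 control members (5.56%) and 27 of 3907 others (0.691%), and in 0 of 31 feeder barcodes, which allows up to 9.68%. In FGF9-treated cells it was found in 15.0% of members, 12.7% of others and 4.76% of feeder barcodes. In CPM, the control members thus stood above the other control cells and below both kept classes of FGF9-treated cells.

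Dusp6, a phosphatase of ERK and a standard readout of the cascade, had 20.3 CPM in control members and 4.85 CPM in the others, with a log2 ratio of 2.07 (1.69 to 2.42). In FGF9-treated cells it had 58.9 and 48.9 CPM, with a ratio of 0.27 (0.17 to 0.37). Etv4 had 3.55 and 1.07 CPM in control (1.74, 0.79 to 2.58) and 28.7 and 25.4 CPM in FGF9-treated cells (0.17). Spred1 had 42.6 and 25.4 CPM in control, Spred2 9.39 and 5.22 CPM, and Il17rd 36.8 and 20.8 CPM. Their FGF9-treated log2 ratios were 0.27, 0.26 and 0.22. Ier3 kept more of its difference, with 73.8 and 37.6 CPM in control (0.97, 0.79 to 1.15) and 171 and 127 CPM in FGF9-treated cells (0.43, 0.37 to 0.49).

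Signalling genes listed for the GDNF receptor, PI3K and AKT genes among them, leaned slightly higher in members. Their summed level had log2 ratios of 0.19 (0.16 to 0.23) in control and 0.09 (0.07 to 0.11) in FGF9-treated cells. Of 27 listed GDNF receptor signalling genes 17 were measured, and 1 was higher in control members: Pik3ca, the catalytic PI3K subunit, with 45.2 and 31.7 CPM (0.51, 0.28 to 0.73). The list median was 0.15 in control and 0.09 in FGF9-treated cells. The other coreceptors were low, with 15 UMIs of Gfra3 and 1 of Gfra2 in control members. The kinase gene Fyn had 105 and 76.6 CPM in control (0.46). Of the GDNF family ligands only Nrtn was measured, with 62.7 CPM in control members and 48.7 CPM in the others, and 40.1 and 37.7 CPM in FGF9-treated cells.

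**Figure D3:**
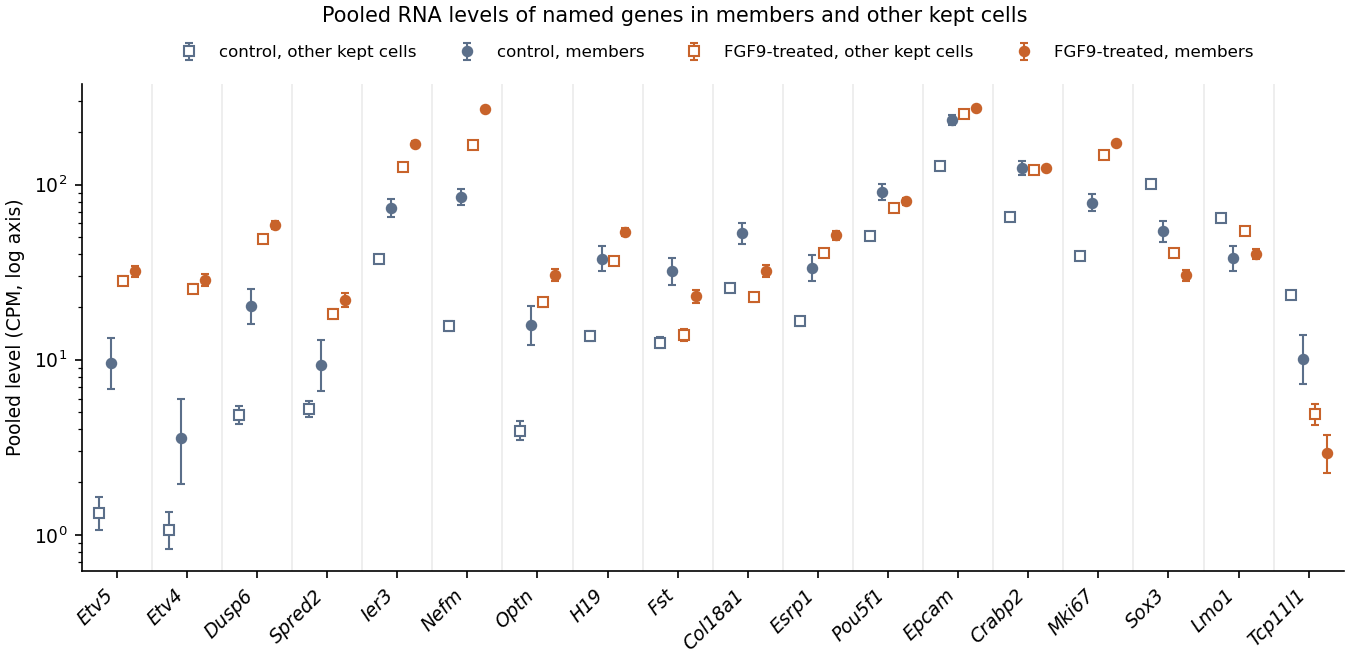
Pooled level in CPM on a log axis (vertical) of 18 genes in other kept cells (open squares) and members (filled circles) of control and FGF9-treated cells. Bars are 95% exact Poisson intervals; in control the members lie apart from the other cells for each gene shown, as for Etv5 (9.64 and 1.33 CPM), whereas the FGF9-treated pair lies close together for most (31.9 and 28.3 CPM).

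Genes that stood out in both libraries were chosen by the smallest of their ratios, pooled and depth-weighted. Nefm, the medium neurofilament chain, led them. It had 85.0 CPM in control members (335 UMIs) and 15.6 CPM in the others, with a log2 ratio of 2.44 (2.26 to 2.62), and 271 and 168 CPM in FGF9-treated cells, with a ratio of 0.70 (0.65 to 0.74). Its control level rested on a minority of cells. Nefm was found in 98 of 234 control members, and the 23 members with the most UMIs held 58.8% of them, with up to 27 in a cell. In FGF9-treated members it was found in 1011 of 1360, and 30.1% had 5 or more UMIs against 15.8% of the others. Feeder barcodes with Nefm were 2 of 31 and 14 of 63.

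Optn, an autophagy receptor gene, had 15.7 CPM in control members and 3.94 CPM in the others (2.0, 1.57 to 2.40), and 30.5 and 21.3 CPM in FGF9-treated cells (0.52, 0.38 to 0.67). Fst, the activin antagonist follistatin, had 32.2 and 12.5 CPM in control (1.36, 1.08 to 1.64) and 23.0 and 13.9 CPM in FGF9-treated cells (0.73, 0.56 to 0.90). Its member level was lower with FGF9, as was that of Col18a1. Fst is also a gene of the feeder, found in 7 of 31 control feeder barcodes at 5000 UMIs, beside 13.2% of control members and 5.35% of the others. H19, an imprinted noncoding RNA, had 37.8 and 13.6 CPM in control (1.47) and 53.7 and 36.6 CPM in FGF9-treated cells (0.55). The basement membrane collagen gene Col18a1 had 53.0 and 25.7 CPM in control (1.05) and 32.2 and 22.7 CPM in FGF9-treated cells (0.50). Slc2a3, a glucose transporter gene, had log2 ratios of 0.65 and 0.53, Batf 0.63 and 0.51, Myh6 1.08 and 0.54, Tanc1 0.88 and 0.50, and Parp14 1.00 and 0.48 (control and FGF9-treated).

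A pair of genes below the floor followed the same pattern and were picked out after their values were seen. Foxc2, a forkhead factor of a quiescent SSC subset, had 54 UMIs in control members (13.7 CPM, against 3.36 CPM in the others) and 339 in FGF9-treated members (15.5 CPM, against 9.61 CPM). Its log2 ratios were 2.03 (1.57 to 2.47) and 0.69 (0.48 to 0.89). Nid1, a nidogen of the basement membrane, had 52 and 309 UMIs in members, with log2 ratios of 1.70 (1.24 to 2.13) and 0.90 (0.68 to 1.13).

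Of the undifferentiated identity genes 14 of 18 were measured, 2 higher and 1 lower in control members. Pou5f1 (OCT4) had 90.6 CPM in control members and 50.6 CPM in the others (0.84, 0.68 to 1.00), and 80.3 and 73.7 CPM in FGF9-treated cells (0.12). Epcam, an adhesion gene of early germ cells, had 233 and 127 CPM in control (0.87, 0.77 to 0.97) and 275 and 253 CPM in FGF9-treated cells (0.12). Sall1 was the lower one, with 5.83 and 10.0 CPM in control (-0.78, -1.45 to -0.18) and 10.9 and 10.1 CPM in FGF9-treated cells. The core factors of the state stood at like levels on both sides. Zbtb16 (PLZF) had 173 and 165 CPM in control and 150 and 140 CPM in FGF9-treated cells, and Sall4 70.3 and 59.8 CPM and 61.1 and 57.9 CPM. Among SSC markers Esrp1, an epithelial splicing regulator, was called beside Etv5, with 33.5 and 16.5 CPM in control (1.02, 0.74 to 1.28) and 51.3 and 40.7 CPM in FGF9-treated cells (0.34). Outside these lists, the retinoic acid carrier gene Crabp2 had 125 and 65.4 CPM in control (0.93, 0.79 to 1.07). It had 124 and 121 CPM in FGF9-treated cells (0.03).

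Markers of later spermatogonia leaned the other way. All 8 progenitor markers were measured; 1 was lower and 0 were higher in control members, with a median log2 ratio of -0.16, and 0 were called in FGF9-treated cells, with a median of -0.09. Sox3, a progenitor transcription factor, had 54.3 CPM in control members and 101 CPM in the others (-0.89, -1.10 to -0.70), and 30.3 and 40.7 CPM in FGF9-treated cells (-0.43, -0.56 to -0.30). Of 14 differentiating markers 11 were measured, again 1 lower in control members, with medians of -0.27 and -0.17. That gene was Lmo1, a LIM-only cofactor, with 38.1 and 64.8 CPM in control (-0.77) and 40.1 and 54.7 CPM in FGF9-treated cells (-0.45). Sohlh1, a bHLH factor of differentiation, had 180 and 224 CPM in control (-0.32) and 88.1 and 116 CPM in FGF9-treated cells (-0.40). The deubiquitinase gene Uchl1 had log2 ratios of -0.31 and -0.18. The rule's conditions on Kit and Neurog3, genes of these same stages, were part of how members were chosen. A separate list of 15 retinoic acid genes had 7 measured, with Crabp2 higher and Rara lower in control members. Its medians were -0.25 in control and -0.15 in FGF9-treated cells, where 0 were called. Rara, a retinoic acid receptor gene, had 17.8 and 25.8 CPM in control (-0.54), and 20.1 and 22.3 CPM in FGF9-treated cells.

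Other genes lower in both libraries, by the same choice, were Tcp11l1 with log2 ratios of -1.21 in control and -0.74 in FGF9-treated cells, and the neuropeptide receptor gene Npffr1 with -0.90 and -0.49. Eppin, a protease inhibitor gene, had -0.44 and -0.55, and the secreted WNT modulator Sfrp2 -0.50 and -0.38. Fjx1, Plekhf1, Eif2c5 and Ydjc had control ratios from -0.81 to -0.62 and FGF9-treated ratios from -0.43 to -0.39. Dpysl3, a cytoskeletal gene also over 4-fold higher in feeder barcodes than in kept cells, had -1.19 and -0.98.

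**Figure D4:**
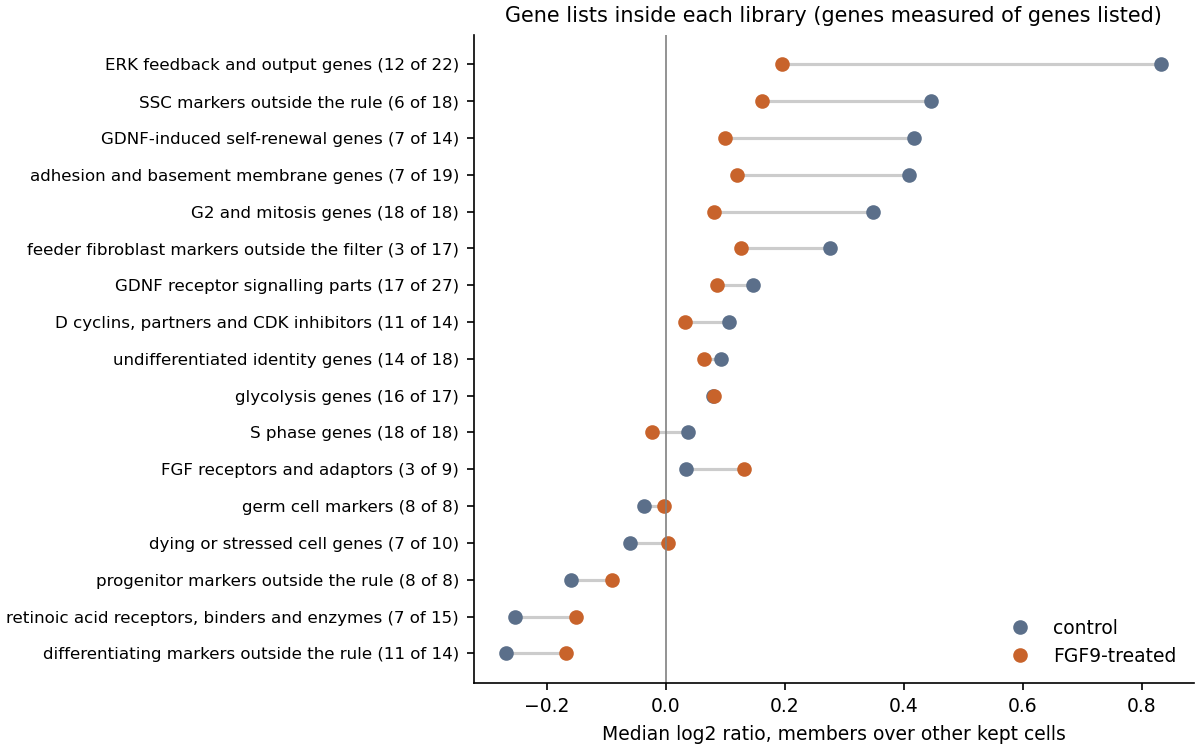
Median log2 ratio of members over other kept cells (horizontal axis) for the gene lists with at least 3 measured genes, in control and FGF9-treated cells. Each line joins the values of a list; ERK feedback and output genes lie farthest right in control (0.83) and at 0.20 in FGF9-treated cells, and differentiating markers farthest left (-0.27 and -0.17). Of the 12 measured ERK genes, 5 were under 10 CPM in control and passed the floor through their FGF9-treated level.

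Proliferation genes differed little and not in a stable manner. The summed S phase list had 1434 CPM in control members and 1376 CPM in the others, a log2 ratio of 0.06 (0.02 to 0.10), and a ratio of -0.02 (-0.03 to 0.00) in FGF9-treated cells, with 0 of 18 genes called in either. The summed G2 and mitosis list had a control ratio of 0.27 (0.24 to 0.30), with Mki67, Kif23 and Nusap1 higher among 18 genes. In FGF9-treated cells it was 0.07 (0.05 to 0.08) with 0 called, and it turned to -0.073 when the other cells were weighted to the depth of the members. The control ratio turned to -0.078 in members with at least 2 UMIs of each receptor. Per cell the order was not the same as in the sum. The median share of a cell's UMIs in the G2 and mitosis list was 0.164% in control members and 0.174% in the others, and 0.178% and 0.177% in FGF9-treated cells. Mki67 had 78.9 and 39.1 CPM in control (1.01, 0.84 to 1.18), and at 5000 UMIs per cell was found in 12.0% of members and 9.14% of the others. In FGF9-treated cells it was found in 26.0% and 25.8%, and in 15.9% of feeder barcodes.

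The remaining lists had at most 2 genes called in either library. Among 7 measured adhesion and basement membrane genes of 19 listed, Epcam and Nid2 were higher in control members, with list medians of 0.41 (control) and 0.12 (FGF9-treated). Of 16 measured glycolysis genes Slc2a3 was the 1 called in each library, with a median of 0.08 in both. Dying or stressed cell genes had 0 of 7 called in each library, with medians of -0.06 and 0.00. D cyclins, their partners and CDK inhibitors had 0 of 11 called in each, with medians of 0.11 and 0.03. FGF receptors and adaptors had 3 of 9 genes measured and 0 called, and Fgfr1 had 68.7 CPM in control members and 67.1 CPM in the others, and 64.3 and 56.6 CPM in FGF9-treated cells.

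FGF9-treated members were then compared with control members. Here 369 genes were higher (4.46%) and 430 lower (5.2%), beside 408 (4.93%) and 415 (5.01%) for the same ratio in the other kept cells. The ratio among members thus met a like number of genes as that outside the gate, with control sums of unequal size behind it. The highest were Pfkp, the platelet phosphofructokinase gene of glycolysis, with 87.0 and 9.64 CPM (3.17, 2.71 to 3.68), Etv4 (3.01), Adm (2.28), Pclaf (2.25), Ankrd37 (2.18), Zmiz1 (1.98), Rrm2 (1.76), Etv5 (1.73), Nid2 (1.69) and Nefm (1.68). Anxa2, a gene also high in feeder barcodes, had 2.15. The lowest were Nkx1-1 with 4.20 and 23.6 CPM (-2.49), Enpep (-2.44), Lhx8 (-2.06), Tcp11l1 (-1.80), Ptpre (-1.78), Dbndd1 (-1.66), Ccnjl (-1.63), Igtp (-1.62), Npffr1 (-1.56) and Epb41l4a (-1.56). Among those also high in feeder barcodes, Dpysl3 had -2.70 and Timp2 -1.73.

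By group, counts between the cultures are given over every listed gene with no filter on low values, since 5 of the 12 measured ERK genes (Dusp6, Spred2, Etv4, Etv5 and Phlda1) were under 10 CPM in control and passed through their FGF9-treated level. Of 22 ERK genes 12 were higher in FGF9-treated than in control members and 0 lower, beside 17 and 0 in the other cells. Their summed level was 412 CPM in control members and 755 CPM in FGF9-treated members (0.87, 0.80 to 0.95). Of 17 glycolysis genes 12 were higher and 1 lower, beside 12 and 0 in the other cells. Of 18 S phase genes 8 were higher, beside 10. Of 18 SSC markers 9 were higher, Etv5, Esrp1, Lhx1 and Tcl1 among them. The other cells had 13 higher and 1 lower. Of progenitor markers Sox3, Rarg and Upp1 were lower, 3 of 8, beside 4 in the other cells. Among differentiating markers Crabp1 (-0.90), Sohlh1 (-1.03) and Uchl1 (-0.89) were lower and Sohlh2 (0.53) higher. In the other cells 4 were lower and 1 higher. These differences were thus not particular to members. Over all genes with no filter 672 were higher and 976 lower between members, and their share was not worked out. Whether any of these lists stood out from all genes was therefore not tested. The identity genes that were higher in the control gate, Pou5f1 and Epcam, were not called between members. Pou5f1 had a log2 ratio of -0.17 (-0.34 to -0.01), which turned to 0.059 with at least 2 UMIs of each receptor and to 0.0065 with at most 10% mitochondrial UMIs. Epcam had 233 CPM in control members and 275 CPM in FGF9-treated ones (0.24, 0.14 to 0.34), and turned to -0.11 with at least 2 UMIs of each receptor. Crabp2, of the retinoic acid list, had -0.01 (-0.15 to 0.13).

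The difference of these ratios between members and other cells equals that of the gate ratios between the libraries, apart from the 0.5 UMIs added to each sum. By the same rule of at least 0.5 in size and an interval without 0, it was called positive for 96 genes (1.16%) and negative for 167 (2.02%). Of all 22 listed ERK genes, with no filter on low values, 10 were called negative and 0 positive. Over all genes with no filter, 185 were called positive and 663 negative. Their share was not worked out, so whether the ERK list stood out was not tested. For Etv5 the FGF9 to control log2 ratio was 1.73 (1.26 to 2.24) among members and 4.41 (4.09 to 4.74) among the others, a difference of -2.69 (-3.25 to -2.12). For Dusp6 it was 1.54 and 3.34 (-1.81, -2.17 to -1.44), and for Nefm 1.68 and 3.42 (-1.75, -1.93 to -1.56). Among genes with at least 100 UMIs in each of the 4 sums, the most negative after Nefm were Upf3b (-1.40), Apoe (-1.24), Col13a1 (-1.23) and Slc9a3r1 (-1.20). Tle3 (0.64), Igfbp2 (0.60), Fzd2 (0.60) and Mrps34 (0.58) were among the most positive. Zmiz1, a PIAS-like coactivator gene with fewer UMIs, was lower in control members (6.85 and 13.3 CPM, -0.96, -1.57 to -0.40) and stood above the others in FGF9-treated cells (27.1 and 20.1 CPM, 0.43, 0.28 to 0.58), a difference of 1.36 (0.79 to 1.93).

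Levels also differed by how many receptor UMIs a cell had. In control, Nefm intervals were 20.9 to 28.4 CPM with Gfra1 only and 47.5 to 75.7 in members with 2 receptor UMIs. Those of Etv5 were 1.59 to 3.06 CPM with Ret only and 3.31 to 13.8 in these members. Neither pair overlapped, so the step from 1 receptor to the gate was not gradual for these genes. In control, Nefm stood at 8.40 CPM in cells with neither receptor, 16.8 with Ret only, 24.5 with Gfra1 only, 57.5 with both and Kit or Neurog3, 60.4 in members with 2 receptor UMIs in all and 123 in those with 5 or more. Etv5 stood at 0.681, 2.23, 1.01, 3.66, 7.25 and 12.3 CPM in the same order. Members with 3 and 4 receptor UMIs had 5.32 (5 UMIs) and 15.3 CPM (12 UMIs) of Etv5, so its rise within members was not even. Sox3 went from 108 CPM with neither to 70.1 in members with 2 UMIs and 47.2 in those with 5 or more. In FGF9-treated cells the same classes spanned less. Etv5 ran from 22.1 CPM with neither to 34.1 with 5 or more, Nefm from 128 to 314 and Sox3 from 49.8 to 26.8. Median depth was not even over these classes. It was 14521 UMIs with neither receptor, 19242 with both and Kit or Neurog3 and 16827 in members with 5 or more in control, and 11794.5, 17596 and 15609 in FGF9-treated cells, and its part in the levels was not tested.

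**Figure D5:**
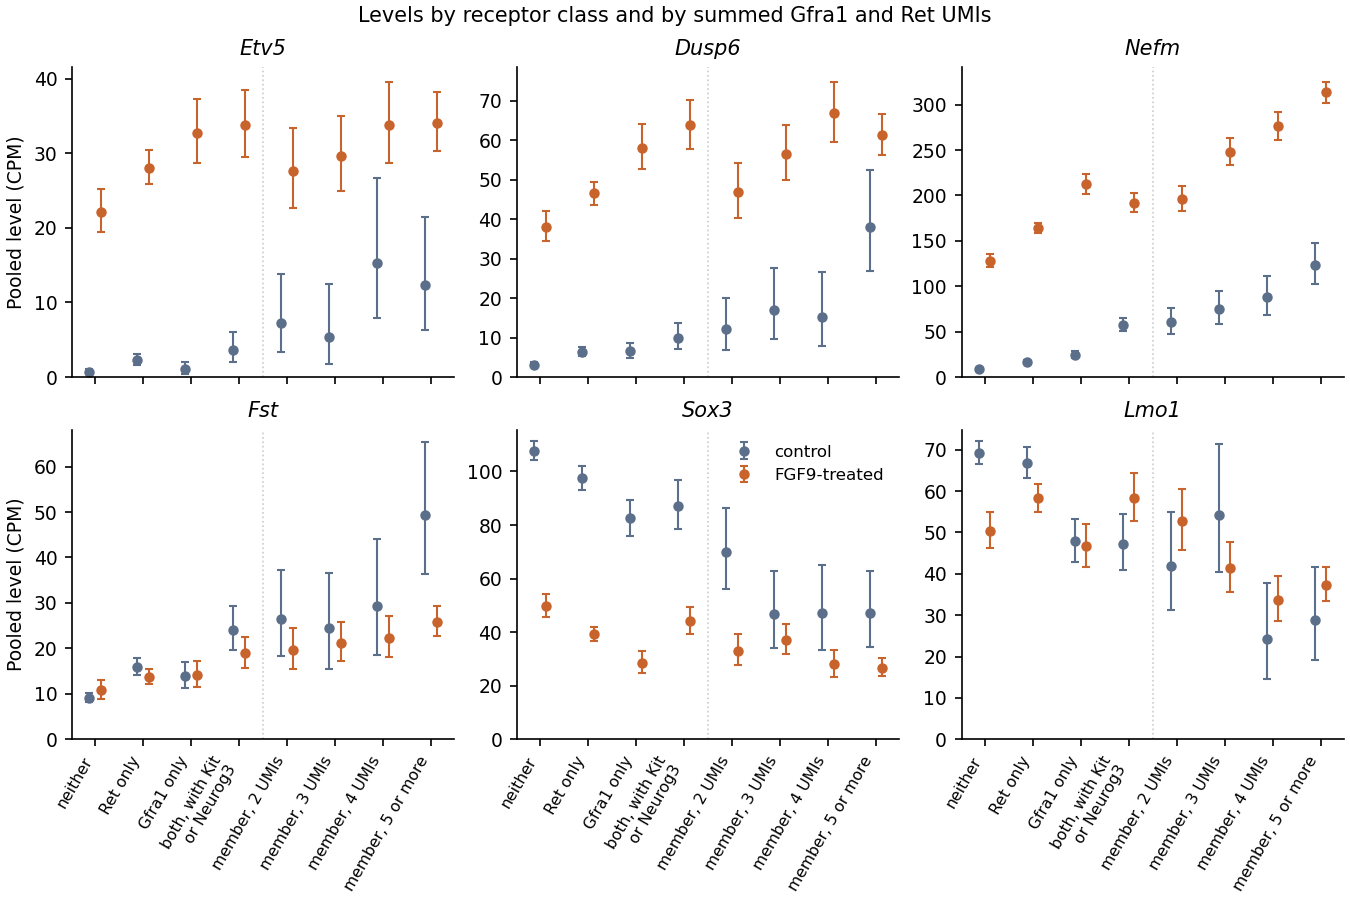
Pooled level in CPM (vertical axes) of 6 genes in classes of cells by receptor RNA, from neither receptor to members with 5 or more summed Gfra1 and Ret UMIs, in control and FGF9-treated cells; members are right of the dotted line. Bars are 95% exact Poisson intervals; control Nefm runs from 8.40 to 123 CPM and control Sox3 from 108 to 47.2 CPM.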

How the data were processed

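RNA and an anti-KIT antibody tag (BioLegend, 1 tag) were measured in single cells with a droplet 3′ kit. The deposited matrices hold raw counts of UMIs for 32285 genes per barcode. The authors ran Cell Ranger (3.1.0 in the matrix header) on mm10, and the labels name Seurat 3.1 for later steps. The deposited barcode and feature files list names only. Multi-copy genes and pseudogenes (of Pou5f1 and glycolysis genes, for example) could take or lose reads in counting.

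Members and gene lists (18 lists, 244 genes) were chosen with earlier results of these data known. UMIs were summed over cells and divided by the total to give CPM. Ratios have exact conditional binomial intervals, levels exact Poisson, shares Clopper-Pearson and differences of ratios Wald intervals (0.5 added to each sum), all at 95% and for counting error only. Limits for a share of 0 use 3 counts. Measured genes had at least 10 CPM (mean of the libraries over kept cells), without predicted genes, clone names, mt- genes and genes of the rule. Genes more than 4-fold higher in feeder barcodes (287 of 8276) were named apart. Named were the 10 highest and 10 lowest by the smallest of 4 ratios of 1 sign (both libraries, pooled and weighted to the members' depth in 10 classes), the 10 highest and lowest between FGF9-treated and control members, 5 each way by the difference among 5810 genes with 100 UMIs in each sum, up to 4 of each list, and the stage markers. A gene that this rule named is not reported here. Thinning drew UMIs without replacement. Kept cells had medians of 14824 UMIs (control) and 13067 (FGF9-treated); no doublet caller was run. Each treatment had 1 library, so spread between cultures is unknown. Scripts were tested on simulated data. Tools were Python 3.11.15, numpy 2.4.6, scipy 1.17.1, pandas 2.3.3 and matplotlib 3.10.9. Promoters came from RefSeq tables (GRCm38.p6), with 184 of the 244 list genes matched.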

Additional observations from a re-analysis of the deposited data

How the results depend on the processing

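No paired analysis was possible because each treatment had 1 library and no result comes from a test. Of 212 values of the main results under 14 alternatives, 120 stayed within their interval or within 1.5 times the reported count, and 4 turned direction; the cause was not tested. Centring on the median gene and leaving out the 11 shared barcodes (chosen after seeing the data) moved none of them, nor did a limit of 20 UMIs for Vim plus S100a6.

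Gate on cells thinned to 5000 UMIs: the shares were 1.84% and 10.3%, the control comparison had 367 genes higher and 285 lower, the FGF9-treated one 30 and 38, and the difference 186 and 325. List genes in FGF9-treated cells were 0 higher and 6 lower. The S phase ratios were 0.14 and -0.15 and the G2 and mitosis ratios 0.11 and -0.31 (control and FGF9-treated), and the FGF9-treated KIT tag ratio was 0.977. In FGF9-treated cells Epcam turned to -0.039 and Mki67 to -0.42.

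Gate on cells thinned to 8000 UMIs: the shares were 3.27% and 17.9%, the control comparison had 401 higher and 295 lower, the FGF9-treated one 20 lower, and the difference 191 and 312. Lower were 9 list genes in control cells and 3 with FGF9. The G2 and mitosis ratios were 0.21 and -0.13, the FGF9-treated S phase ratio was -0.10 and KIT tag ratio 0.976, and Mki67 in FGF9-treated cells turned to -0.061.

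At least 2 UMIs of each receptor: the shares were 1.15% and 9.59%, the control comparison had 516 higher and 361 lower, the FGF9-treated one 33 and 32, and the difference 230 and 401. List genes were 10 lower in control, and 2 higher and 3 lower in FGF9-treated cells. The control G2 and mitosis ratio turned to -0.078 and the FGF9-treated S phase ratio was -0.038. Between members Pou5f1 turned to 0.059, Epcam to -0.11 and Tcp11l1 to 0.50, on 48 control members. At least 3 UMIs of each in FGF9-treated cells only, chosen after seeing the data, gave 103 higher and 123 lower, 2 and 6 of them list genes, an S phase ratio of -0.086 and a G2 and mitosis ratio of 0.087.

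Without the condition on Kit and Neurog3 the shares were 9.98% and 37.2%, 67 genes were lower in control members and 1 in FGF9-treated ones, and the difference had 46 and 104. List genes were 2 lower in control and 0 higher in FGF9-treated cells. The G2 and mitosis ratios were 0.36 and 0.086, the FGF9-treated S phase ratio 0.020, and the KIT tag ratios 0.991 and 1.02. At most 10% mitochondrial UMIs gave 272 genes lower in control, 11 lower in FGF9-treated cells and 29 list genes higher in control. The difference was called positive for 160 genes under this limit. The G2 and mitosis ratios were 0.41 and 0.084, the FGF9-treated S phase ratio 0.0051 and Pou5f1 between members 0.0065. Without barcodes over 2.5 times the median UMIs, 2 list genes were lower in control and the G2 and mitosis ratios were 0.33 and 0.048.

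With genes of at least 2 CPM the control comparison had 536 higher and 286 lower, the FGF9-treated one 95 and 58, with 620 and 801 between members, and 177 and 401 for the difference. With no filter on low genes they were 717 and 303, 257 and 108, 672 and 976, and 185 and 663. With the other cells weighted to the depth of the members, 9 genes were lower in FGF9-treated cells, 2 of them list genes, the G2 and mitosis ratios were 0.24 and -0.073, and the FGF9-treated S phase ratio was -0.067. Tags per RNA UMI gave an FGF9-treated KIT ratio of 0.892, against 1.00 for tags alone.

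With 1 library per treatment no spread between cultures is known. Depth limits low genes most: 1 UMI over the control members is worth 0.254 CPM, and differences of Bcl6b (10 UMIs) or Cxcr4 (3 UMIs) between control members and the other cells were not detectable at this depth.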
